A study of Homo sapiens with 4 samples.

Results

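DNA replication and S-phase genes are the genes that license, open and copy the genome once per cell cycle and that supply the nucleotides for it. Here they comprise 42 genes taken by symbol for their function, and all 42 were found among the 60302 genes listed. Each had 1 row in the table. All 42 passed the filter of a mean of at least 1 FPKM (fragments per kilobase of gene, scaled to sequencing depth) over the 4 samples, which 13110 genes passed. PolyA-selected RNA was sequenced from HMLE cells, human mammary epithelial cells immortalized with telomerase and the SV40 early region, whose large T antigen binds RB family proteins and p53. The 2 control samples carried a stable, non-specific shRNA (short hairpin RNA), and the 2 hnRNPF knockdown samples stably expressed an shRNA against HNRNPF, which encodes an RNA-binding protein and splicing regulator that recognises G-rich sequence. Both groups carried a lentiviral vector, and no hairpin sequence is given in the sources used here. The series concerns RNA G-quadruplexes and splicing. The design text speaks of 2 lines of each kind. Whether these lines arose in separate infections, or with more than 1 hairpin, is not stated, and the p-values therefore cover only the spread between the 4 samples, which may be technical. Errors are SDs with n = 2 per group.

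In G1, the origin recognition complex with CDC6 and CDT1 loads the MCM2 to MCM7 ring onto DNA. In S phase, CDC45 and the GINS proteins turn that ring into the active helicase, DNA polymerase alpha and primase lay down primers, and polymerases delta and epsilon extend them with the sliding clamp PCNA. Many of these genes are transcribed at the start of S phase by E2F factors, which RB family proteins restrain and which cyclin E with CDK2 helps to release. Their RNA levels are widely read as a sign of how many cells of a culture are cycling.

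HNRNPF itself (ENSG00000169813.16, chromosome 10, 43881065 to 43904614, GRCh37) stood at 154 and 153 FPKM in control cells, against 18.7 and 16.6 FPKM after knockdown, so each sample matched its label. It was 8.71-fold lower after knockdown, with a log2 fold change of -3.05 (limma, adjusted p = 0.0251). The log2 fold change of HNRNPF lay between -3.13 and -2.98 in all 15 alternative settings, but its limma adjusted p was 0.259 with no filter, 0.0995 with no intensity trend, 0.164 with the replicate number as a block, 0.262 without control 1 and 0.104 without control 2. FPKM summed to between 391184 and 396135 per sample. The lowest steps of single-exon genes imply about 77.4 to 85.0 M fragments per sample, if the commonest lowest step is 1 fragment. Within a tolerance of 0.02, just 42.4% to 45.1% of low values fell on multiples of the step, which makes these totals estimates. All 7 basal and epithelial markers were present, with KRT5 at 3203 to 4878 FPKM and TP63 at 19.5 to 30.9 FPKM. Of the 5 luminal markers, KRT8 was at 248 to 303 FPKM, KRT18 at 121 to 177 FPKM and GATA3 at 2.78 to 3.62 FPKM, while KRT19 and ESR1 stayed at or below 0.566 FPKM. Of the leukocyte markers, CD3E was listed at 0 in all 4 samples and PTPRC stayed at or below 0.0384 FPKM. CD14, also a leukocyte marker, was at 0.535 to 1.43 FPKM. The endothelial markers VWF and CDH5 stayed at or below 0.0438 FPKM. PECAM1 was also chosen as an endothelial marker, but no value was read for that symbol. Of the fibroblast markers, DCN and LUM stayed at or below 0.0789 FPKM and COL3A1 at or below 0.176 FPKM. COL1A2 reached 0.476 FPKM and PDGFRB 0.828 FPKM, while COL1A1 was at 9.24 to 12.3 FPKM.

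Most replication genes had lower values in the knockdown samples, by small amounts that did not pass the test across all genes. The log2 fold change, knockdown minus control on the log2(FPKM + 1) scale, was below 0 for 33 of the 42 genes, against 49.8% of all tested genes. Its median over the 42 was -0.14, with quartiles of -0.25 and -0.0034. Over all tested genes the median was 0.0012, with quartiles of -0.11 and 0.13. For 20 of the 42 genes both knockdown values lay below both control values, against 17.1% of all tested genes. They lay above both controls for 4 genes (CCNE1, MCM5, E2F2 and MCM7), against 17.5% of all tested genes. The groups overlapped for the other 18. No replication gene passed an adjusted p of 0.05 in limma in either direction, where 0% of all tested genes were called higher and 0.00763% (HNRNPF alone) lower. The smallest adjusted p among the 42 was 0.586 in limma, for RRM2. At an unadjusted p under 0.05 there were 5 lower genes (RRM2, PCNA, TYMS, RPA2 and POLD1), against 3.02% of all tested genes, and 1 higher gene (CCNE1), against 3.06%. Without control 1 the median of the 42 was -0.075 and that of all tested genes 0.062, and without control 2 they were -0.19 and -0.063. With 1 sample left out only 2 pairs remain to be satisfied. The lower count was then 22 without control 1 (25.4% of all tested genes) and 23 without knockdown 2 (25.3%), and it was 30 without control 2 (43.3%) and 28 without knockdown 1 (40.0% of all tested genes). The higher count was 9 without control 1 (42.4% of all tested genes), 9 without knockdown 2 (40.0%), 6 without control 2 (26.9%) and 5 without knockdown 1 (25.8%). In bulk RNA, fewer cells in S phase and less RNA per cell cannot be told apart. Mitochondrially encoded genes, a sign of RNA quality, lay on the other side of 0. Of 36 tested, 35 were above 0, with a median of 0.24, and none passed the threshold. Both knockdown values lay above both controls for 12 of the 36, against 17.5% of all tested genes. The part of mitochondrially encoded genes in the result was not tested.

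**Figure D1:**
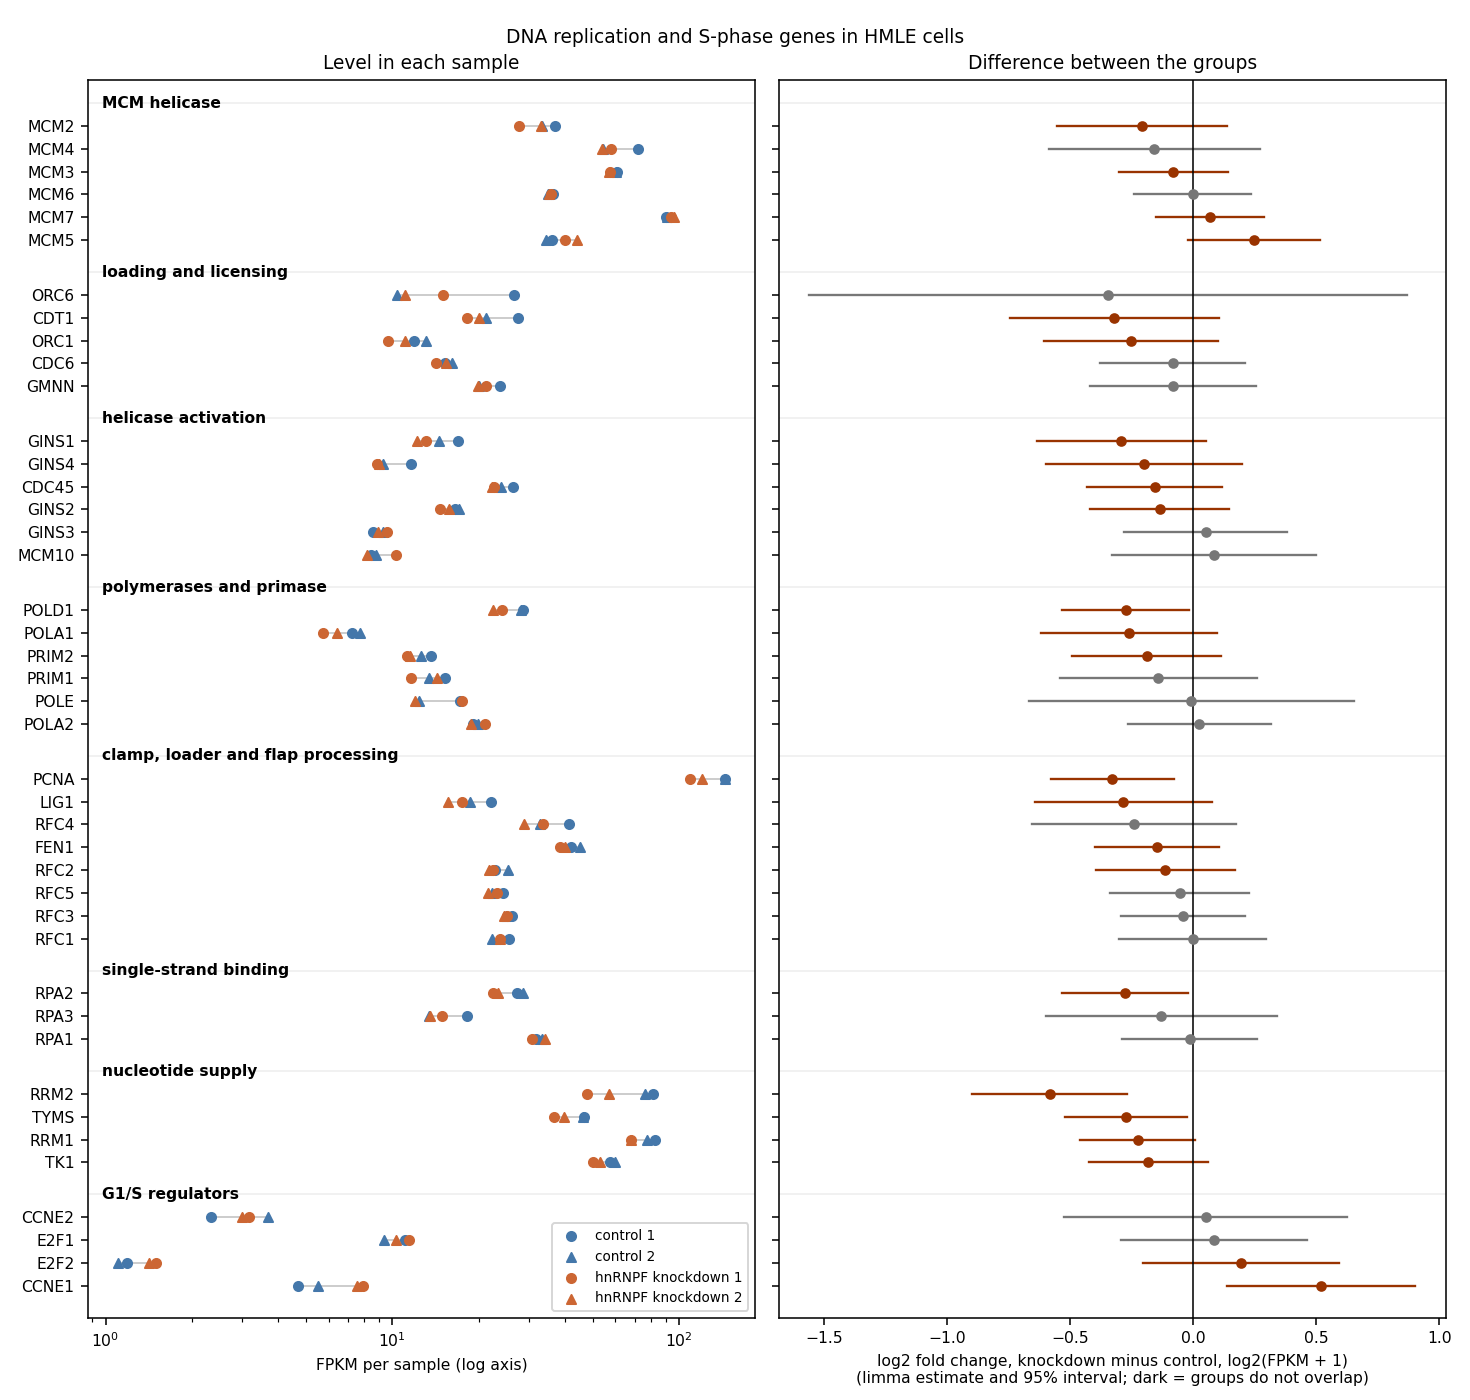
The left panel plots the FPKM of each of the 42 genes in each sample on a log axis, with circles for replicate 1 and triangles for replicate 2. The right panel plots the log2 fold change with its 95% limma interval, dark where the groups do not overlap. RRM2 lies farthest to the left at -0.58 and CCNE1 farthest to the right at 0.52, and ORC6 has the widest interval.

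The promoters of these genes are shown because E2F factors act through short sites near the start of transcription. RefSeq promoters (GRCh38.p14, 250 bases before to 50 after each start) matched 36 of the 42 genes. The search was for the E2F forms TTTCCCGC, then TTTGGCGC, then TTTGCCGC, then TTTCGCGC, and for CCAAT, the box bound by NF-Y, each on both strands. An E2F form was present for 19 of the 36 genes (52.8%), against 3.99% of all 27305 symbols with a promoter, 6.92% of the tested genes matched and 3.31% of all 35116 windows of this length. CCAAT was present for 22 of the 36 (61.1%), against 39.7% of all symbols, 43.4% of the tested genes matched and 34.6% of all windows. The median log2 fold change was -0.082 for the 19 genes with an E2F form, of which 9 lay below and 2 above both controls. It was -0.16 for the 17 without, of which 9 lay below and 1 above. Of all tested genes, 17.1% lay below and 17.5% above both controls. Genes with separated, lower values thus stood in both groups of promoters. A match describes letters and not binding, and no match says only that these letters are not in the window.

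Promoters of the 3 lowest and the 3 highest of the separated genes with an entry are printed 5′ to 3′ on the strand of the gene, so that the letters can be read beside the values. Capitals mark the E2F forms and the CCAAT box, in the letters of the printed strand, so that a box on the other strand reads ATTGG. The windows are chr2:10122489-10122788 for RRM2, chr20:5126573-5126872 for PCNA, chr16:88803539-88803838 for CDT1, chr7:100101348-100101647 for MCM7, chr1:23531184-23531483 for E2F2 and chr19:29811741-29812040 for CCNE1. RRM2 and CDT1 and CCNE1 lie on the plus strand and the others on the minus strand.
RRM2: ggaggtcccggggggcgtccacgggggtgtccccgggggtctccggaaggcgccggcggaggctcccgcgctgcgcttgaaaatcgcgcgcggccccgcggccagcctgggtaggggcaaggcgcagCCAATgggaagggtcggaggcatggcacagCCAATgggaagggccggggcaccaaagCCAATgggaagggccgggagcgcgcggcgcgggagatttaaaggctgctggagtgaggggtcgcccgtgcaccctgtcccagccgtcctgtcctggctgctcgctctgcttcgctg
PCNA: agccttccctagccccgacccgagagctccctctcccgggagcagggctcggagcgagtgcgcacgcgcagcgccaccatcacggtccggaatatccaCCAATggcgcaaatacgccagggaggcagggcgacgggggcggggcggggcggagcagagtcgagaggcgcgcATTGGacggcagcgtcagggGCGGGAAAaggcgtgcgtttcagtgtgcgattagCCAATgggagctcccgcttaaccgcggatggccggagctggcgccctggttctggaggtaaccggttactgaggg
CDT1: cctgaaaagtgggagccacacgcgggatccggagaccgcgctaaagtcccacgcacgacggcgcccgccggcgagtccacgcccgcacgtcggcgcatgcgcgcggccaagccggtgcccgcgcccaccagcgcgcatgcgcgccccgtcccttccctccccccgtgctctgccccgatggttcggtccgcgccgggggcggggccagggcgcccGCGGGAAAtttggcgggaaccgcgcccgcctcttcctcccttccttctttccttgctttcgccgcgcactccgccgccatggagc
MCM7: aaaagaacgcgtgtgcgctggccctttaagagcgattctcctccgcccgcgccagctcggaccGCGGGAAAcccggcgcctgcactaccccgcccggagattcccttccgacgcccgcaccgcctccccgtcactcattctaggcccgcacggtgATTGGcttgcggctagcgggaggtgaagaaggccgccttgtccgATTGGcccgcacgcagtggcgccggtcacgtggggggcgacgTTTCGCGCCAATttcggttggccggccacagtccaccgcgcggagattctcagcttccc
E2F2: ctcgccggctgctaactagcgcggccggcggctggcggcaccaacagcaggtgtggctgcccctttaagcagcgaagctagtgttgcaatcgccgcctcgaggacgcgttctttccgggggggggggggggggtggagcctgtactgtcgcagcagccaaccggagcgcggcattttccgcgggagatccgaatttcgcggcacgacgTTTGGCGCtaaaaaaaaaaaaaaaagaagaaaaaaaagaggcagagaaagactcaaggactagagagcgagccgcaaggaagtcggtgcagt
CCNE1: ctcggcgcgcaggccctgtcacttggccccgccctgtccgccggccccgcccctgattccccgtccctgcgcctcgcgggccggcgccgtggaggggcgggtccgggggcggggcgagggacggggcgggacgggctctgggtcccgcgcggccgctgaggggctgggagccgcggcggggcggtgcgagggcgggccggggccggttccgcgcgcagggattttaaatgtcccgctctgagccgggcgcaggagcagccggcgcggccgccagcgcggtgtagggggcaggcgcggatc

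RRM2, the lowest of the 42 genes, held 3 CCAAT boxes that begin 123, 93 and 66 bases before the start, and no E2F form. PCNA held an E2F form that begins 59 bases before the start, among 3 CCAAT boxes. In CDT1 the E2F form begins 35 bases before the start. MCM7 held 2 E2F forms, at 187 and 9 bases before the start, and the second overlaps a CCAAT box. E2F2, one of the 4 higher genes, held an E2F form 42 bases before the start. CCNE1 held no E2F form and no CCAAT box in this window.

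The 4 genes of nucleotide supply were all lower in both knockdown samples than in both controls, against 17.1% of all tested genes. Ribonucleotide reductase, which makes deoxynucleotides, is built from the large subunit RRM1 and the small, S-phase-limited subunit RRM2. RRM2 (ENSG00000171848.13, chromosome 2, 10262455 to 10271546, GRCh37) was at 81.0 and 76.4 FPKM in control cells, against 47.9 and 56.8 FPKM after knockdown. The groups were apart by more than either group's own range, with means of 78.7 ± 3.24 and 52.4 ± 6.28 FPKM (SD, n = 2), a difference of -33.5%. Its log2 fold change was -0.58 (SE 0.118, 95% interval -0.90 to -0.27; limma, adjusted p = 0.586). RRM1 (chromosome 11, 4115937 to 4160106) was at 82.5 and 77.2 FPKM with the control hairpin, compared with 68.2 and 68.0 FPKM with the HNRNPF hairpin, a log2 fold change of -0.22 (95% interval -0.46 to 0.01). The ratio of RRM2 to RRM1, looked at after the values were seen, was 0.982 and 0.990 in control cells and 0.702 and 0.835 after knockdown. In the controls the subunits thus had nearly equal levels per length, and in both knockdown samples RRM2 was the lower one.

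TYMS, thymidylate synthase, was at 46.6 and 46.1 FPKM in control cells, against 36.7 and 39.8 FPKM after knockdown. Its log2 fold change was -0.27 (95% interval -0.52 to -0.02; limma, adjusted p = 0.806). TYMS lies on chromosome 18 (657604 to 673578, GRCh37), where ENOSF1 and TYMSOS overlap it on the other strand. MCM2, MCM7, GINS2, GINS3, POLA1, PRIM1, RFC4, RFC5, FEN1, RPA1, RPA3 and CCNE2 also share their loci with other-strand genes averaging at least 1 FPKM. It is not stated whether the counting used strand. TK1, the thymidine kinase of cycling cells, was at 57.3 and 60.0 FPKM in control cells, against 50.002 and 53.1 FPKM after knockdown. Summed over the 4 genes, the level was 267 and 260 FPKM with the control hairpin, compared with 203 and 218 FPKM with the HNRNPF hairpin, a difference of -20.2% between the means.

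The sliding clamp gene PCNA had the highest level of the 42 genes. It encodes the ring that holds polymerases, FEN1 and LIG1 on DNA. PCNA (ENSG00000132646.10, chromosome 20, 5095599 to 5107272, GRCh37) was at 145 and 144 FPKM in control cells, against 109 and 121 FPKM after knockdown. The controls were nearly the same and both knockdown samples lay below them, with means of 144 ± 0.142 and 115 ± 7.81 FPKM (SD, n = 2), 1.26-fold lower after knockdown. The log2 fold change was -0.33 (SE 0.0941, 95% interval -0.58 to -0.08; limma, adjusted p = 0.765).

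The enzymes that finish Okazaki fragments were lower with it. LIG1, the replicative DNA ligase, was at 22.1 and 18.7 FPKM in control cells, against 17.6 and 15.6 FPKM after knockdown. FEN1, the flap nuclease, was at 42.01 and 45.3 FPKM with the control hairpin, compared with 38.4 and 40.2 FPKM with the HNRNPF hairpin. FEN1 shares its locus and strand with the longer gene FADS2, which was listed at 21.6 and 13.9 FPKM in control cells, against 16.4 and 12.5 FPKM after knockdown. Neither passed the test (limma, adjusted p = 0.916 for FEN1 and 0.871 for LIG1).

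RFC1 to RFC5 form the clamp loader, which opens PCNA and places it on DNA. Of the 5 subunits only RFC2 was separated, where 17.1% of all tested genes lay below both controls. RFC2 was at 22.8 and 25.4 FPKM in control cells, against 22.5 and 21.8 FPKM after knockdown, where knockdown 1 lay just under control 1. RFC4 was at 41.3 and 32.8 FPKM with the control hairpin, compared with 33.5 and 28.8 FPKM with the HNRNPF hairpin, so the groups overlapped. The large subunit RFC1 had a log2 fold change of -0.0012 (95% interval -0.30 to 0.30), RFC3 one of -0.040 and RFC5 one of -0.055. Differences of about 0.3 in either direction thus lie within the interval of RFC1. The 8 genes of the clamp, loader and flap group were all below 0 as deposited, RFC1 moving to 0.030 with quantile normalization, and summed to 349 and 336 FPKM in control cells, against 294 and 297 FPKM after knockdown.

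Single-stranded DNA at the fork is covered by RPA, a trimer of RPA1, RPA2 and RPA3. RPA2 was at 27.3 and 28.7 FPKM in control cells, against 22.4 and 23.4 FPKM after knockdown, with a log2 fold change of -0.28 (95% interval -0.53 to -0.02; limma, adjusted p = 0.806). The largest subunit, RPA1, was at 31.8 and 33.4 FPKM with the control hairpin, compared with 30.6 and 34.0 FPKM with the HNRNPF hairpin. RPA3 was at 18.2 and 13.4 FPKM in control cells, against 14.9 and 13.6 FPKM after knockdown. Only RPA2 of the trimer was separated between the groups, where 17.1% of all tested genes lay below both controls.

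Among the polymerases, the catalytic subunits of delta and alpha were separated downward and that of epsilon was not. POLD1, the catalytic subunit of polymerase delta, was at 28.6 and 28.2 FPKM in control cells, against 24.1 and 22.5 FPKM after knockdown, with a log2 fold change of -0.27 (95% interval -0.53 to -0.02; limma, adjusted p = 0.811). POLA1, the catalytic subunit of polymerase alpha, was at 7.24 and 7.70 FPKM with the control hairpin, compared with 5.75 and 6.39 FPKM with the HNRNPF hairpin. It was the lowest-level gene of this group. Its partner POLA2 was at 19.2 and 19.9 FPKM in control cells, against 21.0 and 18.8 FPKM after knockdown, with overlap.

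The primase subunit PRIM2 was at 13.6 and 12.6 FPKM in control cells, against 11.3 and 11.5 FPKM after knockdown. The catalytic primase subunit PRIM1 overlapped between the groups, with 15.3 and 13.5 FPKM with the control hairpin, compared with 11.6 and 14.3 FPKM with the HNRNPF hairpin. PRIM1 lies in a locus that NACA overlaps on the same strand at 212 to 233 FPKM, so fragments shared between them could not be seen apart in this table. POLE, the catalytic subunit of polymerase epsilon, was alike within each replicate number. It was at 17.3 FPKM in control 1 and 17.6 FPKM in knockdown 1, and at 12.4 FPKM in control 2 and 12.02 FPKM in knockdown 2. Its group means were both 14.8 FPKM, and its interval ran from -0.67 to 0.65.

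**Figure D2:**
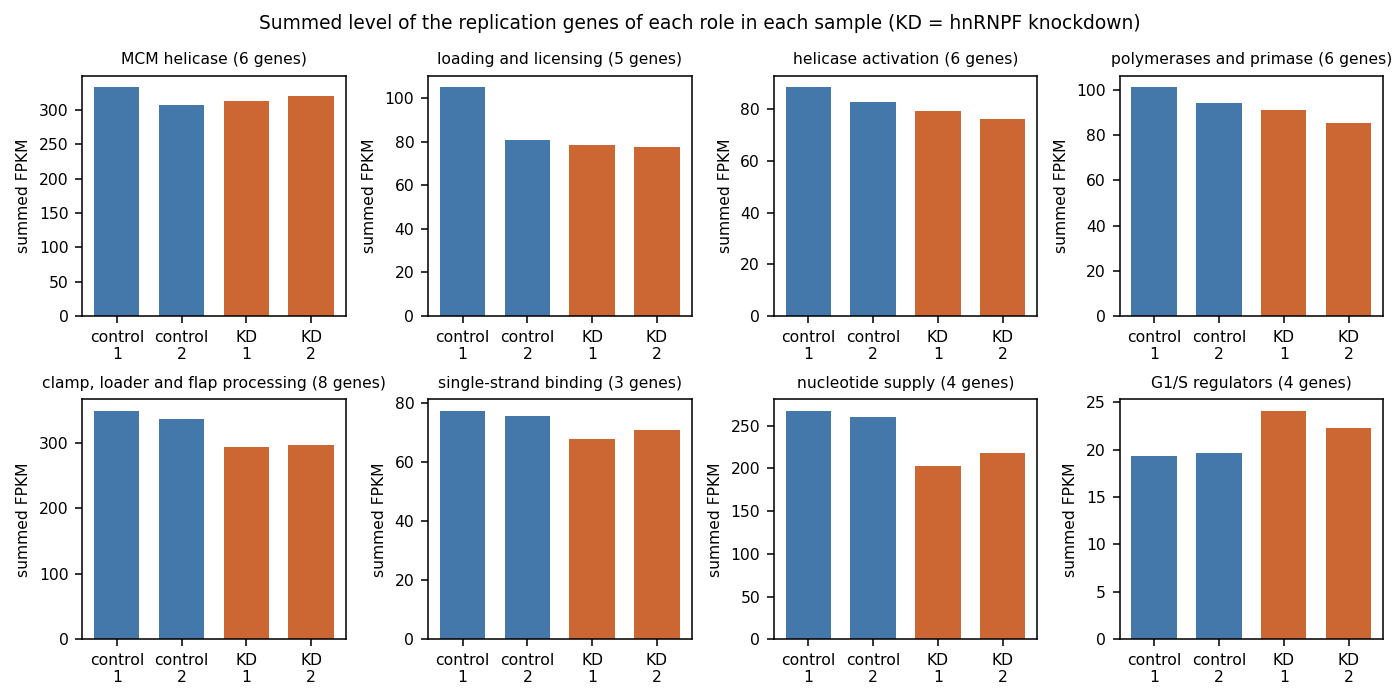
Bars give the FPKM summed over the genes of each role in each sample, with axes from 0, blue for the controls and orange for the hnRNPF knockdown samples (KD). The nucleotide supply bars stand at 267 and 260 FPKM against 203 and 218 FPKM, while the MCM helicase bars lie between 308 and 333 FPKM in all 4 samples.

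The subunits of the MCM2 to MCM7 ring differed in direction. The ring is the motor of the replicative helicase and holds 1 copy of each subunit. MCM2 was at 36.9 and 33.4 FPKM in control cells, against 27.7 and 33.1 FPKM after knockdown, so its separation rested on a gap of less than 1 FPKM between control 2 and knockdown 2. MCM3 was at 61.0 and 60.3 FPKM in control cells, against 57.4 and 57.1 FPKM after knockdown. MCM5 (ENSG00000100297.15, chromosome 22, 35796056 to 35821423, GRCh37) was higher in both knockdown samples, at 39.9 and 44.2 FPKM against 36.1 and 34.4 FPKM in the controls. Its log2 fold change was 0.25 (95% interval -0.02 to 0.52; limma, adjusted p = 0.833). MCM7, the subunit with the highest level and the host of MIR25, was at 90.3 and 90.6 FPKM with the control hairpin, compared with 93.9 and 96.1 FPKM with the HNRNPF hairpin.

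MCM6 was at 36.4 and 34.8 FPKM in control cells, against 35.7 and 35.3 FPKM after knockdown. MCM4 was at 72.04 and 54.2 FPKM in control cells, against 57.9 and 53.9 FPKM after knockdown, so that control 1 alone stood apart. The median log2 fold change of the 6 subunits was -0.042, and their summed level was 333 and 308 FPKM with the control hairpin, compared with 312 and 320 FPKM with the HNRNPF hairpin, with overlap. Mean levels spanned 2.83-fold from MCM2 to MCM7. The ratio of MCM5 to MCM2, looked at after the values were seen, was 0.977 and 1.03 in control cells and 1.44 and 1.34 after knockdown.

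The loading factors were below 0 for 5 of 5 genes, against 49.8% of all tested genes. Of these, 2 were separated downward, against 17.1% of all tested genes. CDT1, which brings the MCM ring to the origin and is destroyed in S phase, was at 27.5 and 21.2 FPKM in control cells, against 18.2 and 20.1 FPKM after knockdown. Its log2 fold change was -0.32 (95% interval -0.74 to 0.10), and the controls differed from each other by more than control 2 differed from either knockdown sample. GMNN, geminin, the inhibitor of CDT1, had overlapping groups at 23.7 and 19.99 FPKM and at 21.3 and 19.8 FPKM. ORC1, the cycle-regulated subunit of the origin recognition complex, was at 11.9 and 13.2 FPKM in control cells, against 9.64 and 11.1 FPKM after knockdown. CDC6, which joins ORC at origins, was at 15.3 and 16.2 FPKM with the control hairpin, compared with 14.3 and 15.4 FPKM with the HNRNPF hairpin, where knockdown 2 lay just above control 1. ORC6 had the largest SE of the 42 genes on the log2 scale, at 26.5 and 10.4 FPKM in control cells, against 15.0 and 11.1 FPKM after knockdown. Its log2 fold change of -0.35 (95% interval -1.56 to 0.87) became 0.29 without control 1.

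The factors that activate the helicase were separated downward for 4 of 6 genes, against 17.1% of all tested genes. CDC45 was at 26.4 and 24.0 FPKM in control cells, against 22.7 and 22.3 FPKM after knockdown. In the GINS tetramer, GINS1 was at 16.9 and 14.6 FPKM with the control hairpin, compared with 13.1 and 12.2 FPKM with the HNRNPF hairpin, a log2 fold change of -0.29 (95% interval -0.63 to 0.05). GINS2 was at 16.6 and 17.1 FPKM in control cells, against 14.7 and 15.8 FPKM after knockdown. These 3 genes differed by between -0.14 and -0.29 on the log2 scale.

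GINS4 was at 11.6 and 9.31 FPKM in control cells, against 8.88 and 8.96 FPKM after knockdown. GINS3, the fourth partner, overlapped between the groups at 8.55 and 9.27 FPKM and at 9.58 and 8.94 FPKM. MCM10, a scaffold needed to start unwinding, was at 8.40 and 8.80 FPKM in control cells, and the knockdown samples lay on either side, at 10.3 and 8.15 FPKM. MCM10 and GINS3 were the genes of this group with estimates above 0.

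The 4 regulators of S-phase entry among the 42 genes had their estimates on the other side of 0. All 4 had a log2 fold change above 0, with a median of 0.14. Of these, 2 were separated upward, against 17.5% of all tested genes. A further 24 G1/S regulators, read in the second list below, had a median of -0.022, with 14 below 0 and 10 above. CCNE2 and E2F1 turned below 0 when 1 sample was left out. CCNE1, cyclin E1, which activates CDK2 at the end of G1 (ENSG00000105173.13, chromosome 19, 30302805 to 30315215, GRCh37), was at 4.69 and 5.50 FPKM with the control hairpin, compared with 7.91 and 7.54 FPKM with the HNRNPF hairpin. The means were 5.10 ± 0.579 and 7.73 ± 0.264 FPKM (SD, n = 2), 1.52-fold higher after knockdown. CCNE1 had a log2 fold change of 0.52 (SE 0.144, 95% interval 0.14 to 0.90; limma, adjusted p = 0.753). Its partner in name, CCNE2, was at 2.33 and 3.68 FPKM in control cells, against 3.17 and 3.003 FPKM after knockdown, within the spread of the controls. E2F2, an activating E2F factor, stood near the filter at 1.19 and 1.11 FPKM in control cells, against 1.51 and 1.42 FPKM after knockdown. On the log2(FPKM + 1) scale its difference was 0.19 (95% interval -0.20 to 0.59), which understates the change of a gene this low. E2F1 was at 11.1 and 9.38 FPKM with the control hairpin, compared with 11.5 and 10.3 FPKM with the HNRNPF hairpin, with overlap.

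The 4 pairings of knockdown with control samples did not all show the same distance from the rest of the transcriptome. The median difference of the 42 genes was -0.18 for knockdown 1 against control 1, where that of all tested genes was -0.0049, and 32 of the 42 were below 0. For knockdown 1 against control 2 it was -0.081 with 24 of 42 below 0, while all tested genes had a median of 0.11. For knockdown 2 against control 2 it was -0.074 with 31 of 42 below 0, against a median of 0.0045. For knockdown 2 against control 1 it was -0.13 with 34 of 42 below 0, but all tested genes had a median of -0.11, so the distance was only -0.017. The other 3 distances lay between -0.19 and -0.078. Within the groups, control 2 lay below control 1 for 27 of the 42 genes, with a median of -0.060, and knockdown 2 below knockdown 1 for 24, with a median of -0.011. Over all tested genes 67.7% were lower in control 2 than in control 1, with a median of -0.11, and 66.4% lower in knockdown 2 than in knockdown 1, with a median of -0.094. The median difference between the controls was thus less than the -0.14 between the groups. Many single genes, however, differed by more between the controls than between the groups, among them ORC6, MCM4 and POLE. CDT1, GINS4 and RFC2, which were separated between the groups, also did so.

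**Figure D3:**
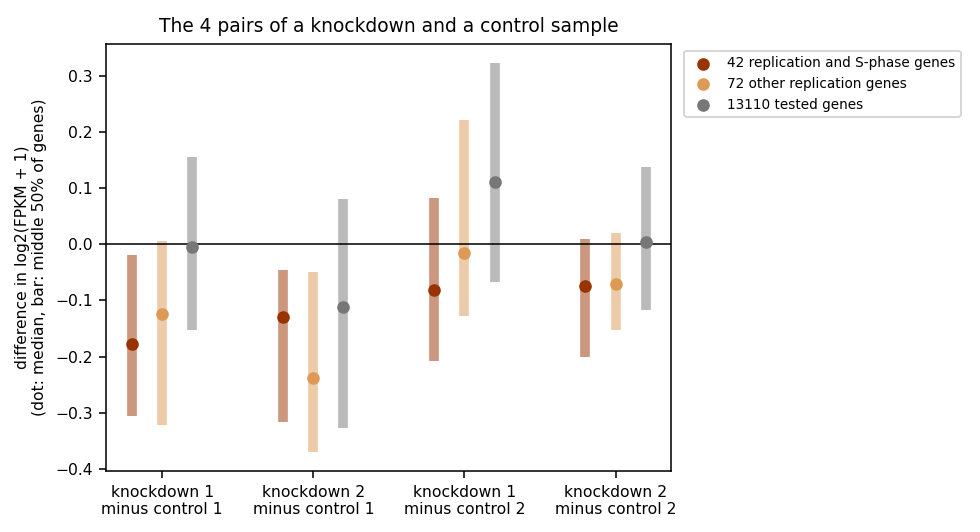
Dots give the median and bars the range between quartiles of the difference in log2(FPKM + 1) for each pairing of samples, for the 42 genes, for 72 other replication genes and for all 13110 tested genes. The 42 genes have a median below 0 in each pair, and their median is closest to that of all genes in knockdown 2 minus control 1.

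A second list of 72 other replication genes, covering the remaining origin, fork, chromatin, nucleotide and G1/S genes, was read beside these, and all 72 were tested. The log2 fold change was below 0 for 54 of the 72, with a median of -0.094. The 72 include the cycle inhibitors CDKN1A, CDKN2A and CDKN1B, at -0.59, -0.25 and 0.048. CDKN1A was the lowest of the 72, with overlapping groups, and TFDP2 the highest, at 0.61. In 29 genes both knockdown values lay below both control values, against 17.1% of all tested genes, and in 4 above, against 17.5%. Without control 1 the median was -0.035 and without knockdown 2 it was -0.039, while it was -0.20 without control 2 and -0.15 without knockdown 1. The lower count was then 35, 33, 49 and 45 in the same order, against 25.4%, 25.3%, 43.3% and 40.0% of all tested genes. No gene of this list passed the threshold, with a smallest adjusted p of 0.743 in limma. Without adjustment, 4 lower genes and 1 higher gene had a p under 0.05, against 3.02% and 3.06% of all tested genes.

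The 4 genes of this list with the smallest p were CCNA2, RRM2B, CDK4 and CDK6. CCNA2, cyclin A2, the S-phase and G2 partner of CDK2, was at 52.6 and 57.7 FPKM in control cells, against 36.6 and 43.5 FPKM after knockdown. RRM2B, the p53-induced small subunit of ribonucleotide reductase, was at 23.2 and 19.7 FPKM in control cells, against 14.9 and 16.3 FPKM after knockdown. Both were thus lower, as was RRM2, and their log2 fold changes were -0.46 and -0.43.

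The cyclin D kinases CDK4 and CDK6 differed in direction. CDK4 was at 74.5 and 68.6 FPKM with the control hairpin, compared with 58.4 and 57.4 FPKM with the HNRNPF hairpin. CDK6 was at 15.6 and 15.8 FPKM in control cells, against 23.2 and 19.4 FPKM after knockdown. The 4 genes had adjusted p-values of 0.743 to 0.782 in limma. By role, 16 of 18 polymerase and fork genes and 9 of 10 licensing genes were below 0, while the 24 G1/S regulators were divided into 14 below and 10 above.

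**Figure D4:**
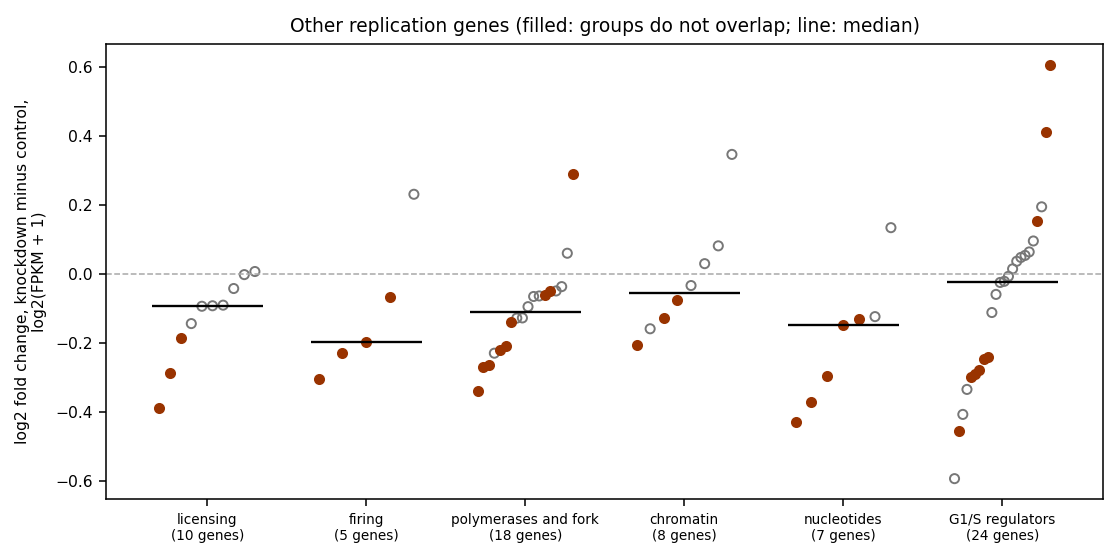
Each point is the log2 fold change of 1 of the 72 other replication genes, grouped by role, filled where the groups do not overlap, with a line at the median of each role. Medians lie between -0.20 and -0.022, and the G1/S regulators have the widest range.

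Of 12 mitotic genes read beside these, 11 were below 0, with a median of -0.19. AURKA lay above, at 0.070. In 6 of the 12 both knockdown values lay below both controls, against 17.1% of all tested genes. For knockdown 2 against control 1 the median was -0.11 with 8 of 12 below 0, where that of all tested genes was also -0.11. In the other pairs the median of the 12 lay between -0.31 and -0.15. Knockdown 2 lay below knockdown 1 for just 1 of the 12. The smallest adjusted p of the 12 was 0.465 in limma, for HMMR. HMMR, a spindle and hyaluronan-binding protein, had a log2 fold change of -0.74, farther from 0 than that of any of the 42 replication genes, and was named after its values were seen. It was at 21.7 and 21.96 FPKM in control cells, against 12.1 and 13.2 FPKM after knockdown, with no overlap. MKI67, a marker of cycling cells, was at 14.0 and 12.6 FPKM in control cells, against 11.5 and 12.9 FPKM after knockdown, with overlap. CDK1, the kinase of mitotic entry, was at 78.9 and 68.4 FPKM with the control hairpin, compared with 57.4 and 60.3 FPKM with the HNRNPF hairpin. The share of the replication genes' differences that follows the number of cycling cells was not tested.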

How the data were processed

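The deposited table holds FPKM per gene in 2 control and 2 hnRNPF knockdown samples, scaled by the authors for gene length and depth, per the file headers. Libraries were stranded, paired-end and polyA-selected, per the labels' protocols. STAR 2.5.3a, Cuffdiff 2.2.1 and GRCh37 are named, without roles, per the submitters' processing notes. The annotation release is not given in the sources used here. Groups came from the sample titles. The 13110 genes that averaged 1 FPKM or more were tested on log2(FPKM + 1) values by limma 3.58.1 (R 4.3.3) with an intensity trend, no covariate and two-sided p-values, with Benjamini-Hochberg adjustment over all of them at 0.05. The fit was also run on simulated data with independent samples and log2 effects of 1 and 2. Those effects exceed the change of each of the 42 genes, so the run does not bear on changes that small. Exact permutation of 2 against 2 samples reaches 0.333 at the least and was not used. Depth was read from GENCODE 29 genes of 1 exon and at least 500 bases. The members, lists and tests were chosen with earlier results of these data known, so lists are described by counts and medians without a test. By rule, values in every sample were given for genes separated between the groups, for the 3 highest and 3 lowest fold changes and the 3 highest levels, and for the 4 genes of the second list with the smallest p. Those of their overlapping partners were added after their values were seen. Alternatives were pseudocounts of 0.1 and 0.5, a minimum mean of 5 FPKM or none, quantile normalization or median-ratio scaling, no trend, robust estimation, a replicate block, each sample left out, rows of a symbol summed and, added after seeing the data, sums with overlapping same-strand genes.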

Additional observations from a re-analysis of the deposited data

How the results depend on the processing

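No replication gene passed under any of the 15 alternatives, and the median log2 fold change of the 42 genes stayed below 0 in each. It ran from -0.19 to -0.075 when 1 sample was left out. By construction, no filter, a minimum of 5 FPKM and no trend cannot change the fold change of any gene kept. The same holds for robust estimation, the replicate block and, with 1 row for each of the 42 genes, summed rows. An unchanged direction under those settings therefore says nothing about stability. The count lower than both controls was 18 with median-ratio scaling, against 19.4% of all tested genes. With quantile normalization it was 14, against 18.9% of all tested genes. With 1 sample left out only 2 pairs remain, so counts rise by construction: 22 to 30 genes were lower and 5 to 9 higher. Over all tested genes 25.3% to 43.3% were then lower and 25.8% to 42.4% higher. The lone sample of a group is then assumed to vary like the other group. For the 72 other genes the median then ran from -0.20 to -0.035 and the lower count from 33 to 49. Genes called over the whole table numbered 0 with no filter, 0 without the trend, 0 with the replicate block, 2 with median-ratio scaling and 0 to 2 with 1 sample left out.

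Of the 628 single-gene values, 603 kept their direction and side of the threshold and 25 turned, in 15 genes. The 603 include every value from the settings that cannot change a fold change, so this count overstates stability. With quantile normalization MCM6 was 0.025, POLE 0.0066, RFC1 0.030 and RPA1 0.0090. Summed with overlapping genes, a setting chosen after seeing the data, PRIM1 was 0.0075 and RFC1 0.0085. Ranges with 1 sample left out were -0.36 to 0.044 for MCM4, -0.033 to 0.028 for MCM6, -0.98 to 0.29 for ORC6, -0.20 to 0.038 for GMNN, -0.0013 to 0.10 for GINS3, -0.050 to 0.10 for POLA2 and -0.26 to 0.25 for POLE. They were -0.097 to 0.094 for RFC1, -0.12 to 0.0044 for RFC5, -0.34 to 0.079 for RPA3, -0.20 to 0.30 for CCNE2, -0.087 to 0.058 for RPA1, -0.026 to 0.20 for E2F1 and -0.069 to 0.24 for MCM10. The cause was not tested.

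With the replicate number as a block, the smallest adjusted p of the 42 genes was 0.31 in limma, and 10 lower and 1 higher gene lay under an unadjusted 0.05, against 6.24% and 7.41% of all tested genes. Deviations of control 1 and knockdown 1 from their group means correlated at 0.39 over tested genes, but the titles give only a shared number. With 2 samples a group, the intervals of well-measured genes span about 0.2 to 0.3 on either side.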
